A study of Apis cerana with 9 samples.

Results

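The proboscis of *Apis cerana*, the Asian honey bee, was compared between bees that carried rapeseed pollen and bees that carried none. The comparison used 6 of the 9 RNA-seq libraries of the series, chosen by their group label alone: 3 of rapeseed pollen carriers (rapeseed) and 3 of bees without pollen (non-pollen). The other 3, of pear pollen carriers (pear), were used only to ask whether a difference also separated the rapeseed from the pear libraries. All samples share the tissue, and no strain, age, colony, collection day or treatment is given for any of them. Nothing tells if libraries with one label were made from different bees or colonies, and the p-values therefore cover no more than the spread among these samples, which may be technical. A gene was tested where its FPKM, the authors' fragment count scaled by gene length and library total, reached 1 or more in 3 or more libraries, which kept 9067 of 12757 genes.

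The proboscis is the sucking mouthpart of the bee, built from the labium and the maxillae, moved by muscle, covered by cuticle and set with taste hairs. Major royal jelly proteins, by contrast, are products of the hypopharyngeal glands, paired glands inside the head. In the western honey bee these glands make jelly proteins in young bees that nurse brood, and mainly enzymes that turn nectar into honey in older bees that forage. Pollen is carried on the hind legs. The labels do not say whether the bees without pollen were nurses, nectar foragers or of another age or task.

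The transcripts held markers of the mouthpart and of other parts of the head. As shares of all counts, with no TMM scaling, muscle genes (myosin heavy chain, titin, paramyosin, troponin and tropomyosin) took 3.73% to 3.8% of the counts in the non-pollen and 7.68% to 7.71% in the rapeseed libraries. Proboscipedia, the homeotic gene that specifies the mouthparts in Drosophila, and distal-less, which builds the outer part of appendages there, had reads in every library. The 38 gland markers took 37.1% to 37.6% of the non-pollen counts and 0.78% to 0.823% of the rapeseed counts, with 1 of them at 0 throughout each group. As single genes they were divided: of 23 tested 11 were lower and 8 higher after scaling (median log2 fold change -0.034). The 13 eye markers (opsins, arrestins and their channels) took 0.0823% to 0.0878% and 0.0058% to 0.006%, with none at 0 in all libraries of either group, and all 9 that passed the filter were lower with rapeseed pollen. The 35 brain markers took 0.108% to 0.109% and 0.131% to 0.132% of all counts, of which 19 of 32 tested were lower after scaling, 5 were higher and 1 was at 0 in every rapeseed library. Markers of fat body and blood cells took low shares in both groups, 0.104% to 0.111% against 0.114% to 0.117% and 0.0068% to 0.0071% against 0.0062% to 0.0076%. One library stood apart: non-pollen replicate 1 had the lowest summed share of the 16 markers of chemosensory hairs, which ran from 0.0081% to 0.0248% over the non-pollen libraries. The gap lay mainly in some odour genes and not in all markers. Odorant-binding protein 69a-like (LOC108002840) had 1652, 11607 and 10967 counts in the non-pollen libraries, but gustatory receptor 43a (LOC108004158) had 268, 364 and 405. Total counts ran from 43034759 to 64306245 in the non-pollen and from 49085060 to 53518340 in the rapeseed libraries, and the 10 most abundant genes held 38.9% to 39.4% of the counts in the former and 11.9% to 12% in the latter.

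Of the 9067 genes, 5415 (59.7%) differed between the groups at an adjusted p under 0.05 (edgeR's quasi-likelihood test with Benjamini-Hochberg adjustment), 2717 (30.0%) higher and 2698 (29.8%) lower in the rapeseed libraries. Most of these differences were small: the quartiles of the log2 fold change over all tested genes were -0.299 and 0.256, and 648 genes (7.15%) were called with a fold of at least 2. Among these the balance tipped down, with 175 higher and 473 lower. Falls of at least 8-fold were found in 106 genes, whereas no gene rose by as much, and only 10 rose by at least 4-fold. Levels are given as CPM, counts scaled to a common library size after TMM correction. The levels of the 6 libraries did not overlap between the groups in 5185 of the 5415 called genes. Those genes were picked by a test of the same values, so this count is no separate support for the calls.

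These directions are relative to the bulk of the genes. Because gland transcripts filled so much of the non-pollen libraries, library sizes were corrected with TMM (the trimmed mean of M-values), which sets the typical gene at no change (median log2 fold change -0.015). With library totals alone the median was 0.469, 6429 genes were higher and 728 lower, so that 89.8% rather than 50.2% of the calls were higher. A fall of less than about this shift turns into a rise without the correction. Values under library totals alone are given beside each list that turns or that is evenly split.

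**Figure D1:**
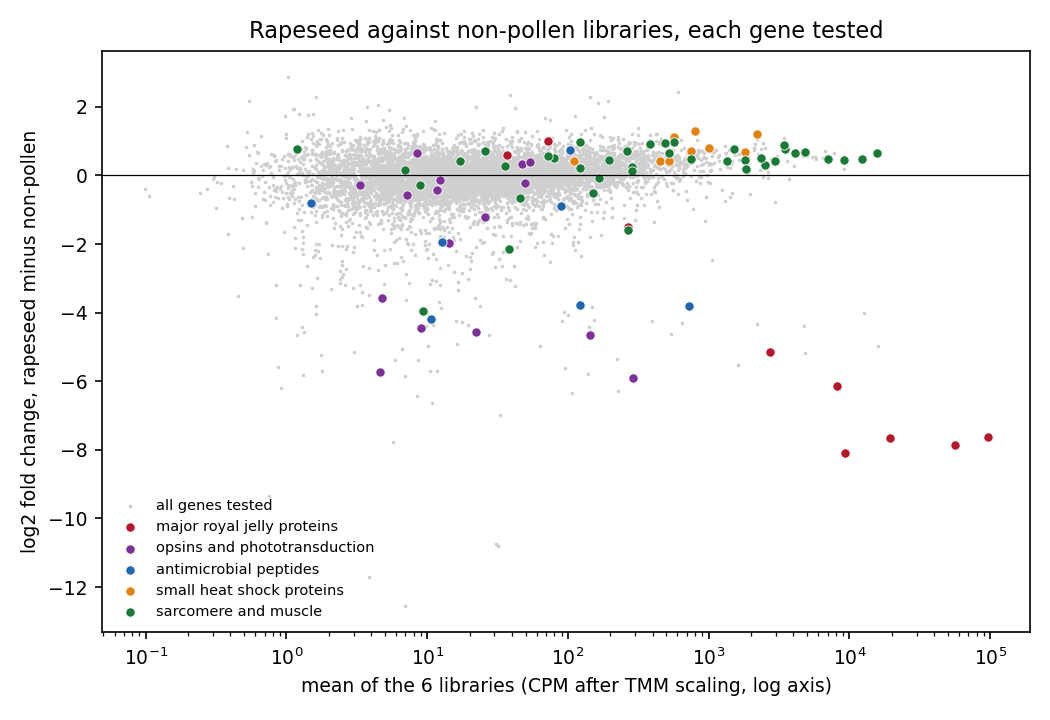
Each point is 1 of the 9067 genes tested, with the mean level of the 6 libraries on the horizontal axis (CPM after TMM scaling, log axis) and the log2 fold change of rapeseed minus non-pollen on the vertical axis. Royal jelly protein genes lie lowest among the abundant genes, at down to -8.10, small heat shock genes lie above 0, and most muscle genes lie between 0 and 1.

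The largest change by amount was in royal jelly genes. The list took 32.3% ± 0.175 (SD, n = 3) of the counts in the non-pollen libraries and 0.279% ± 0.019 (SD, n = 3) in the rapeseed libraries. An exact permutation test of 3 against 3 libraries cannot give a p below 0.10, and these shares reached it (p = 0.1). Of 13 genes of the list 9 were tested, of which 7 fell and 2 rose. Major royal jelly protein 5-like (LOC107997172) stood at 206498, 204669 and 202278 CPM there and 1137, 989.6 and 954 CPM in the rapeseed libraries, a 198-fold fall (log2 fold change -7.63, SE 0.0548, adjusted p = 1.81e-23). The 3 tested genes described as major royal jelly protein 2-like fell as steeply, with log2 fold changes of -8.10 (LOC107997173), -7.86 (LOC107997171) and -7.66 (LOC107994025), and the major royal jelly protein 5 precursor (LOC107997178) fell by 6.15 on that scale. The libraries of each group lay close together, and no rapeseed library came near a non-pollen one. Major royal jelly protein 1-like (LOC108003955) went the other way, from 55.8, 52.7 and 45.3 to 97.4, 102 and 106 CPM (log2 fold change 1.0, adjusted p = 2.73e-10). In bulk libraries like these, fewer gland cells and less transcript per gland cell cannot be told apart. Copies of this family can share reads, and the sources used here do not give the treatment of reads that match more than 1 gene.

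A list of nectar and honey enzymes, drawn by description, split into falls and rises. It holds alpha-glucosidases, amylase, maltases and glucose dehydrogenase-like genes, and not every member need act on nectar. Of 17 tested genes 5 fell and 9 rose, but by at least 2-fold 4 fell and 1 rose. Glucose dehydrogenase-like genes were among the smaller rises, with LOC107993950 and LOC107994785 at log2 fold changes of 0.83 and 0.65. Alpha-glucosidase (LOC107993622), which splits sucrose, went from 26905, 24890 and 25542 CPM in the non-pollen to 1599, 1606 and 1600 CPM in the rapeseed libraries, 16-fold lower (log2 fold change -4.00, SE 0.0258, adjusted p = 5.86e-24). Glucose dehydrogenase (LOC107997822) fell 31.3-fold and alpha-amylase 4N-like (LOC108004028), which cuts starch, 45.8-fold. In length-scaled units alpha-glucosidase still reached 744 FPKM in the rapeseed libraries, above each of the royal jelly genes named here. Among the risers, alpha-glucosidase isozyme II (LOC107995328) rose 2.49-fold, from 60.9, 60.6 and 58.5 to 146, 153 and 146 CPM, and maltase A2-like (LOC107995143) 1.8-fold. A pair of glucosylceramidase genes, for enzymes that remove glucose from a membrane lipid, fell as well, LOC108003239 by 4.30 and LOC108003248 by 2.47 on the log2 scale.

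Other steep falls were in genes outside the jelly family. LOC108003250, an uncharacterized gene among the 10 of highest FPKM in the non-pollen libraries, went from 10651, 9859 and 9932 to 276, 279.9 and 278 CPM. PI-PLC X domain-containing protein 1-like (LOC108002169) had 462, 730 and 807 counts in the non-pollen libraries and 0 in every rapeseed library, at least 849.7-fold lower against a floor of 3 counts over the group. Chorion peroxidase (LOC107998613), an oxidase named from the hardening of the insect eggshell, was also at 0 in the rapeseed libraries against 281, 447 and 366 counts, at least 465-fold lower. FAM71B-like (LOC107993596) kept 0, 6 and 0 counts against 2299, 3223 and 3492. Eisosome protein SEG2-like (LOC108000123), synaptic vesicle glycoprotein 2A (LOC108002484), aminopeptidase N (LOC107993198), which trims peptides, and cysteine-rich venom protein 6-like (LOC107996362) had log2 fold changes of -6.99, -6.33, -6.28 and -5.80, and oig-1-like (LOC107996443), with an immunoglobulin domain, of -5.63. Hexamerin-like (LOC107995056), of a family of storage proteins, fell by 5.61 on the log2 scale, and chymotrypsin inhibitor-like (LOC107996293) by 4.62. Of the 648 genes called with a fold of at least 2, 183 have no description that names a protein.

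**Figure D2:**
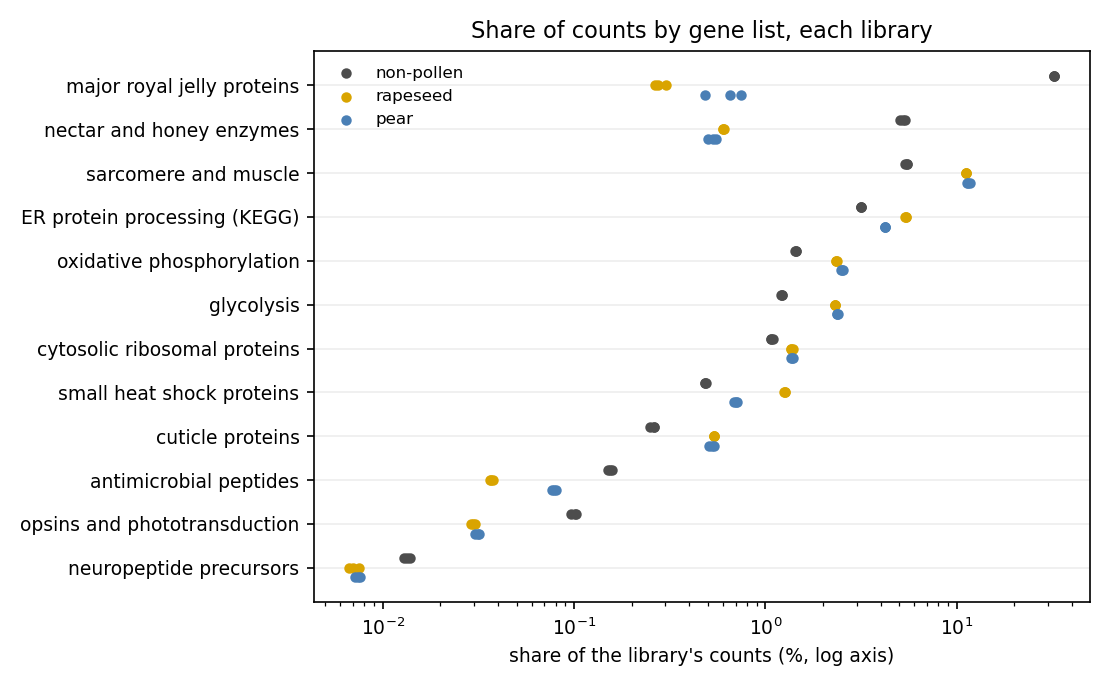
Each point is 1 library, with the share of its counts held by a gene list on the horizontal axis (%, log axis) and 12 lists as rows, coloured by group. Royal jelly genes hold 32.3% of the counts on average in non-pollen and 0.279% in rapeseed libraries, while genes of the sarcomere and muscle list hold 5.44% and 11.1%.

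Genes of the machinery that makes secreted proteins were lower with rapeseed pollen. This machinery threads new proteins into the endoplasmic reticulum (ER), cuts off their signal peptide and adds sugar chains. Of 27 genes of the translocon, signal peptidase and oligosaccharyltransferase 18 fell and 1 rose (median log2 fold change -0.48 against -0.015 over all genes), whereas with library totals alone 10 were lower and 10 higher. Translocon-associated protein alpha (LOC108003753) stood at 103, 101 and 99.5 CPM in the non-pollen and 23.8, 21.8 and 25.7 CPM in the rapeseed libraries (log2 fold change -2.08, SE 0.0577, adjusted p = 5.11e-15). The TRAM1-type translocating chain protein (LOC108003005), which sits beside the channel, stood at 182, 185 and 185 CPM against 49.1, 45.1 and 48 CPM with rapeseed pollen (log2 fold change -1.95). The falls ran through the channel itself, with Sec61 beta (LOC107998143) at -1.27 and Sec61 alpha (LOC107996464) at -1.05, the enzyme that cuts the signal peptide (signal peptidase complex subunit 2, LOC107999530, at -0.99) and an oligosaccharyltransferase subunit (LOC107996006) at -1.53. The exception that rose, the 54 kDa protein of the signal recognition particle (LOC107997425), which brings ribosomes to the channel, had a log2 fold change of 0.22.

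The same direction held in the neighbouring steps, with smaller median falls. Of 14 genes of the COPI and COPII coats, which shape transport vesicles, 9 fell and 2 rose (median -0.18), yet with library totals alone 10 were higher and 0 lower. Coatomer subunit beta (LOC107995340) was among the risers, at a log2 fold change of 0.53. No aminoacyl-tRNA ligase rose among 39 tested, and 31 fell (median -0.31), although 18 were higher and 6 lower with library totals alone. These enzymes load amino acids onto tRNA, and the cytoplasmic ones for alanine (LOC108004192), leucine (LOC107994969) and serine (LOC107998983) had log2 fold changes of -1.41, -1.11 and -1.11. Among 89 KEGG pathways with 20 to 200 tested genes, ranked after the values were known, N-glycan biosynthesis had the lowest median (-0.45, 28 of 44 lower and 1 higher), a median that was 0.034 with library totals alone. The wider KEGG list of protein processing in the ER was mixed, 64 lower and 40 higher of 142, and 25 and 90 with library totals alone. The summed gland markers fell with these genes, from 37.1% to 37.6% of the counts to 0.78% to 0.823%, and their part in the result was not tested.

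Genes of protein synthesis in general moved less. Of 78 cytosolic ribosomal protein genes 37 fell and 10 rose, none by 2-fold, and of 79 ribosome biogenesis genes 30 fell and 8 rose, but with library totals alone 67 and 54 of them were higher, so the direction of both lists rests on the scaling. Mitochondrial ribosomal proteins (26 of 68 lower, 6 higher) turned in the same way, to 52 higher. Translation initiation factors were even (14 higher and 15 lower of 45 after TMM scaling, 40 and 1 with library totals alone), close to the share of calls over all genes.

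**Figure D3:**
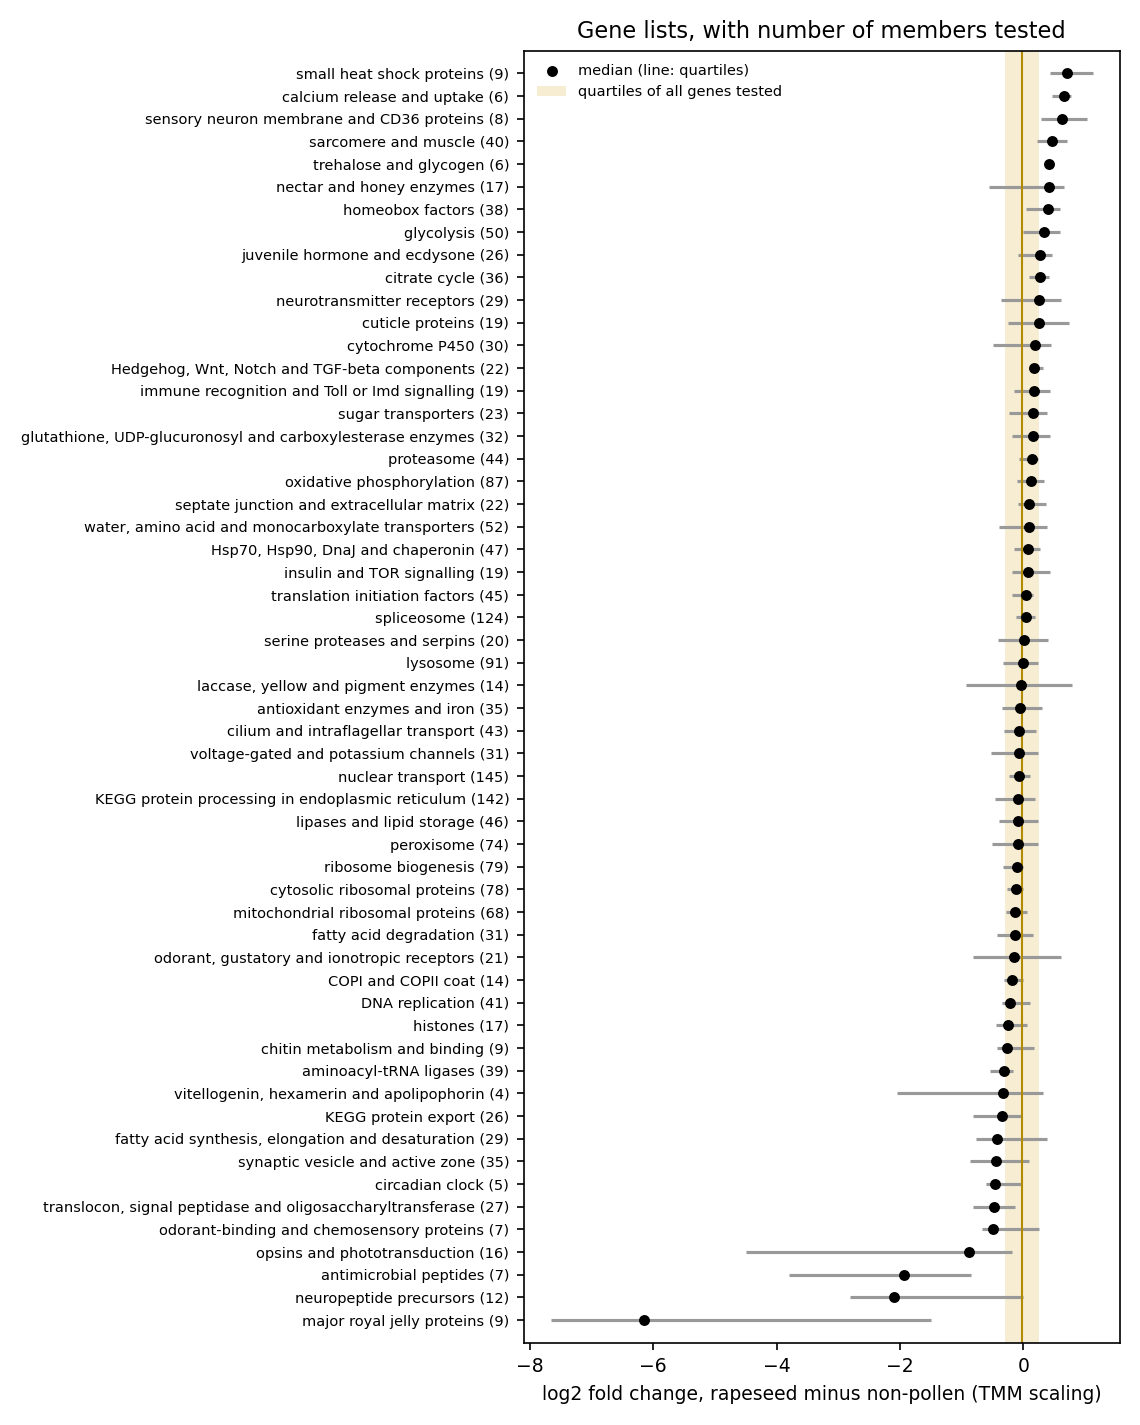
Each row is a gene list with its number of tested members, with the median (point) and quartiles (line) of the log2 fold change of rapeseed minus non-pollen on the horizontal axis. The shaded band spans the quartiles of all genes tested, -0.299 to 0.256, and royal jelly, neuropeptide and antimicrobial genes lie far to its left.

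Transcripts of opsins and their partners were among the steepest falls. Of 16 tested genes of opsins and phototransduction 11 fell, 8 of them by at least 2-fold, and 3 rose. Long-wavelength rhodopsin (LOC108000411), the green receptor of the eye, had 586, 624 and 626 CPM in the non-pollen and 11.3, 9.88 and 9.17 CPM in the rapeseed libraries, 60.1-fold lower (log2 fold change -5.91, SE 0.0572, adjusted p = 9.19e-22). A 2nd long-wavelength rhodopsin (LOC114577754) and the arrestins LOC107999531 and LOC107993698, which switch opsins off, had log2 fold changes of -5.72, -4.67 and -4.57. The rapeseed libraries lay far below all non-pollen libraries but were not at 0. The 3 risers are all described as chaoptin, named for an adhesion protein of Drosophila photoreceptors, and LOC107998844 had a log2 fold change of 0.65 among them. Less eye tissue in the rapeseed samples and less transcript per eye cell cannot be told apart.

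Genes of nerve cells also fell, though unevenly. Of 12 tested neuropeptide precursors 8 fell, all by at least 2-fold, and 2 rose (median -2.09). Allatostatins (LOC107995363), which in insects restrain juvenile hormone synthesis, had 3.66, 3.44 and 3.9 CPM in the non-pollen and 0.0841, 0.202 and 0 CPM in the rapeseed libraries, and prohormone-1 (LOC107995312), a diuretic hormone (LOC107998259) and short neuropeptide F-like (LOC107999041), linked to feeding, had log2 fold changes of -3.18, -3.30 and -2.69. Of 35 genes of synaptic vesicles and release sites 21 fell and 6 rose (median -0.44), with 10 lower and 14 higher under library totals alone. Receptors went the other way: of 29 tested neurotransmitter receptors 16 rose and 7 fell, with the glutamate receptors LOC108000566 and LOC107992980 at 1.21 and 1.32 and the kainate-type LOC108002045 at 151, 151 and 149 against 263, 269 and 259.8 CPM. Glutamate is the transmitter of insect nerve to muscle synapses. Voltage-gated and potassium channels were balanced after TMM scaling (10 higher, 10 lower of 31), but 20 were higher and 4 lower with library totals alone. Slowpoke (LOC107995100), a calcium-activated potassium channel, was at 0.91 and an auxiliary calcium channel subunit (LOC107994332) at -1.22. Period (LOC107998360), a core gene of the daily clock, was lower in the rapeseed libraries, 69.3, 72.4 and 74.4 against 127, 129 and 128 CPM (log2 fold change -0.82, adjusted p = 1.46e-11), and the hour of collection is not given.

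Peptides of the antibacterial defence were mostly lower in the rapeseed than in both other groups. Of 7 tested genes 6 were called lower than with pear pollen and 1 higher, where 13.2% of all tested genes were called in that test. Of the same genes 6 fell against non-pollen and 1, lysozyme c-1 (LOC114577830, log2 fold change 0.76), rose. Defensin-1 (LOC107993803), which honey bees also secrete into jelly, went from 1522, 1427 and 1418 to 100, 104 and 104 CPM, 14.1-fold lower (log2 fold change -3.82, SE 0.0326, adjusted p = 1.33e-22), and the pear libraries were above the rapeseed ones but far below the non-pollen ones, at 124, 129 and 138 CPM. Hymenoptaecin (LOC107993492) showed another pattern, with 252, 244 and 231 CPM in the non-pollen, 17.3, 18.8 and 16.6 in the rapeseed and 111, 120.3 and 122 in the pear libraries (rapeseed minus pear -2.74, SE 0.0539, adjusted p = 5.83e-20). The other hymenoptaecin (LOC108001747) and abaecin-like (LOC108002218) likewise lay between the groups in the pear libraries, with log2 fold changes of rapeseed minus pear of -2.81 and -1.47. Apidaecins type 22 (LOC108000468) fell with rapeseed pollen, from 133, 122 and 121 to 69, 65.5 and 65.6 CPM, while the pear libraries stood above both at 284, 289.8 and 302 CPM. The share of counts of the list was 0.154% ± 0.0032 (SD, n = 3) in non-pollen, 0.0369% ± 0.0007 in rapeseed and 0.0787% ± 0.0021 in pear libraries. Genes of recognition and signalling did not follow: of 19 tested 11 rose and 5 fell, and peptidoglycan-recognition protein SC2-like (LOC108004046), which binds bacterial wall, had a log2 fold change of 0.54 against non-pollen and -0.63 against pear.

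Among the genes that rose, enzymes of long-chain lipids stood out by fold. Fatty acyl-CoA reductases turn fatty acids into alcohols for waxes, and elongases lengthen them. The reductase LOC108003267 went from 54.2, 52.5 and 49 CPM in the non-pollen to 249.9, 255 and 255 CPM in the rapeseed libraries, 4.91-fold higher (log2 fold change 2.30, SE 0.0408, adjusted p = 9.84e-18). The reductases LOC108003266, LOC107998960 and LOC107994054 rose as well, by log2 fold changes of 1.71, 1.34 and 0.57, and an elongase (LOC108000343) went from 64.5, 66.6 and 67.3 to 279, 288 and 286 CPM. Over the whole list of fatty acid synthesis, elongation and desaturation these were the minority: of 29 tested 8 rose and 18 fell (median -0.42; with library totals alone 12 were higher and 7 lower). Other reductases, LOC107998959 and LOC107998963, fell, with log2 fold changes of -2.08 and -1.80, as did an acyl-CoA Delta(11) desaturase (LOC108000092), which puts in a double bond, at -1.73. The steepest falls of the list were in a pair of elongases, LOC107995792 and LOC108001947, at 22.9, 24.8 and 23.6 and 21, 20.4 and 20.9 CPM in the non-pollen and 2.69, 2.8 and 2.29 and 2.49, 2.52 and 2.54 CPM in the rapeseed libraries. These differed even more from the pear libraries, which held 0.132, 0.247 and 0.271 and 0.132, 0.228 and 0.368 CPM. Of the 29 tested genes of the list 11 were called higher and 1 lower in rapeseed than in pear libraries, where 13.2% of all tested genes were called in that test.

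A few enzymes and secreted proteins were higher in the rapeseed than in the non-pollen libraries while the pear libraries lay below both. Laccase-5-like (LOC108001912), of the oxidases that tan cuticle, had 209.7, 194 and 206 CPM in the non-pollen, 1082, 1105 and 1064 in the rapeseed and 29.4, 26.2 and 27.4 in the pear libraries (log2 fold change 2.42 against non-pollen with adjusted p = 4.23e-20, and 5.29 against pear). It was the largest by fold of the 15 rises named by size. Venom serine protease 34-like (LOC107993933) had 71.7, 74.8 and 79.6 CPM in the non-pollen, 333, 331 and 349.7 in the rapeseed and 12.7, 11.4 and 10.1 in the pear libraries. Pancreatic triacylglycerol lipase-like (LOC108002367), which frees fatty acids from fat, had 17.6, 16 and 21.4 CPM without pollen, 68.5, 72.9 and 71.1 with rapeseed and 4.61, 5.8 and 5.29 with pear pollen. In these 3 genes the groups were fully separated. Another lipase, lipase member H-A-like (LOC108002366), was scarce, at 0, 26 and 11 counts in the non-pollen, 97, 103 and 133 in the rapeseed and 16, 0 and 12 in the pear libraries. Phospholipase B1 (LOC107999468) fell instead, from 62.3, 64.9 and 61.8 to 10.4, 10.1 and 9.78 CPM, and was lower still with pear pollen, at 0.736, 1.54 and 1.16 CPM. Families did not move together: of 14 laccases, yellow proteins and other pigment enzymes 6 rose and 6 fell, or 8 and 5 with library totals alone. Laccase-1-like (LOC108000897) was at -1.22 and yellow-like (LOC107999779) at 2403, 2294 and 2290 against 5005, 4990 and 4938 CPM.

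Other rises named by size were in genes of several kinds. Alpha-tocopherol transfer protein (LOC107994999), which in mammals carries vitamin E, went from 12.1, 15.4 and 13.3 to 70.2, 70.7 and 67.8 CPM (log2 fold change 2.35, SE 0.0775). Serine protease inhibitor 3-like (LOC107998380), loricrin (LOC108000177), acylphosphatase-2 (LOC107994018), adenosine deaminase CECR1-like (LOC107996199), tyrosine aminotransferase (LOC107999788) and a UDP-glucuronosyltransferase (LOC108002185) had log2 fold changes of 2.04, 1.91, 1.69, 1.62, 1.58 and 1.39. Adenosine deaminase removes an amino group from adenosine, and tyrosine aminotransferase opens the breakdown of tyrosine. Chitinase 3 (LOC107995941), which cuts the chitin of cuticle, rose from 89.4, 80.4 and 90.4 to 225, 224 and 230.2 CPM. Of 9 tested genes of chitin metabolism and binding 2 rose and 4 fell, or 5 and 1 with library totals alone. Cuticle proteins of high FPKM rose too, with cuticular protein 14 (LOC107995209), larval cuticle protein LCP-17-like (LOC107995210) and cuticle protein-like LOC108002383 at 0.55, 0.90 and 0.98. Of 19 tested cuticle proteins 8 rose and 4 fell. By at least 2-fold 0 rose and 3 fell, among them pupal cuticle protein-like (LOC108002602) at -3.78 and pro-resilin (LOC107993156) at -2.39.

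Every small heat shock gene tested was higher in the rapeseed libraries. These chaperones hold unfolding proteins in solution, and in insects they respond to heat and other stress. All 9 tested genes rose (median 0.71). LOC107996022, described as lethal(2)essential for life-like, had 508, 474 and 496 CPM in the non-pollen and 1219, 1194 and 1210 CPM in the rapeseed libraries (log2 fold change 1.30, SE 0.0268, adjusted p = 7.9e-17), and the pear libraries, at 468, 483 and 515 CPM, lay with the non-pollen ones. Small heat shock protein LOC107996027 went from 1457, 1384 and 1383 to 3236, 3300 and 3258 CPM, and LOC107996023, LOC108003645, LOC107996026 and LOC107996025 had log2 fold changes of 1.12, 0.79, 0.71 and 0.69. Against pear 8 of the 9 were called higher and none lower, where 13.2% of all tested genes were called. Of the larger chaperones, the cognate Hsp70 genes LOC107996313 and LOC107994859 and Hsp90 (LOC107999366) rose by 1.05, 0.50 and 0.57, but the list of Hsp70, Hsp90, DnaJ and chaperonin genes as a whole had 19 rises and 11 falls among 47. DnaJ C22 (LOC108002958) fell, from 325, 301 and 311 to 17.7, 17.4 and 14.8 CPM. Copies of the lethal(2)essential for life-like genes can share reads, and temperature and handling at collection are not given. Of 44 genes of the proteasome, which breaks proteins down, 24 rose and 8 fell.

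**Figure D4:**
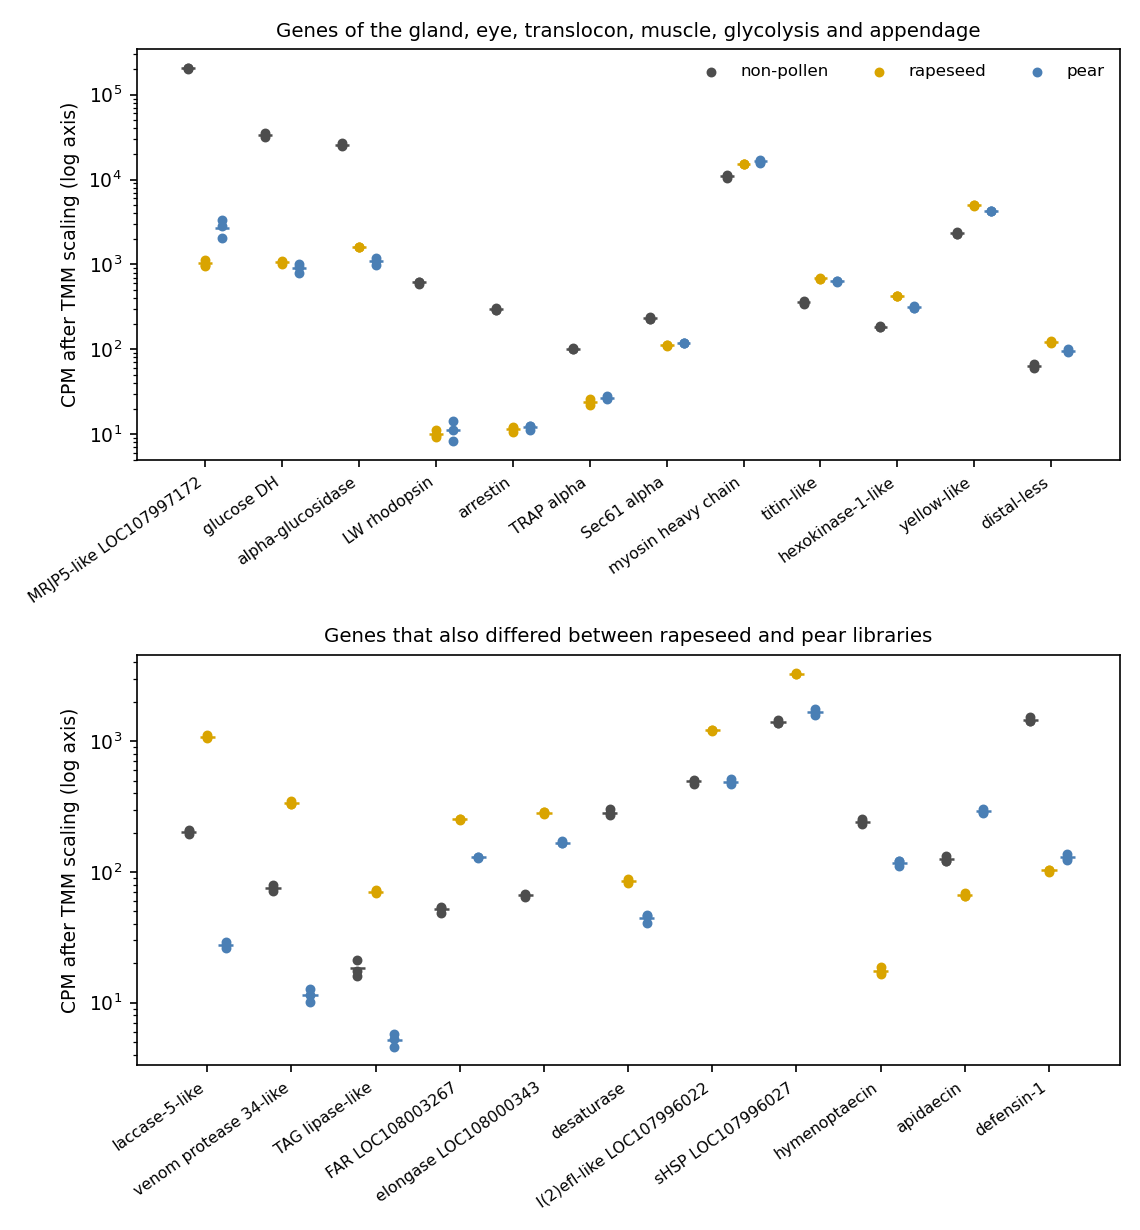
Each point is 1 library and each short line a group mean, with the level on the vertical axis (CPM after TMM scaling, log axis) and named genes on the horizontal axis, in order non-pollen, rapeseed and pear. In the upper panel the 5 genes of gland and eye drop from non-pollen to rapeseed by 16-fold or more, while in the lower panel laccase-5-like is highest in rapeseed (1064 to 1105 CPM) and lowest in pear libraries (26.2 to 29.4 CPM).

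Most genes of the sarcomere and muscle list rose, none of them by 2-fold, while 3 fell by at least 2-fold. Of 40 tested genes of the sarcomere, the contractile unit, 32 rose and 5 fell (median 0.46). Muscle myosin heavy chain (LOC107999930), the motor of the thick filament, stood at 11347, 10506 and 10942 CPM in the non-pollen and 15370, 15072 and 15094 CPM in the rapeseed libraries (log2 fold change 0.48, SE 0.023, adjusted p = 7.61e-12), and a 2nd myosin heavy chain (LOC107995435) and titin-like (LOC107998412), an elastic scaffold, had log2 fold changes of 0.97 and 0.95. Genes that release calcium for contraction rose with them, with the ryanodine receptor (LOC108002766) at 2038, 1889 and 1970 against 3395, 3458 and 3457 CPM and junctophilin-1-like (LOC107995051) at 0.94. The titin homolog LOC108000987 fell instead, from 622, 914 and 958 counts in the non-pollen to 70, 97 and 38 in the rapeseed libraries (log2 fold change -3.94). The troponin C genes, calcium sensors of the thin filament, were divided. Type IIIa (LOC108003860), the one of highest FPKM, rose by 0.65 while LOC107995871 and LOC107998833 had -1.58 and -2.14. Actin clone 205-like (LOC108003298), among the 10 genes of highest FPKM with rapeseed pollen, had 0.19. Among 380 GO terms of 20 to 200 tested genes, ranked after the values were known, Z disc had the highest median (0.54, 34 of 39 higher and 1 lower).

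Enzymes that burn sugar rose alongside. In glycolysis, as KEGG lists it, 32 of 50 genes rose and 4 fell (median 0.33), and in the citrate cycle 26 of 36 rose and 3 fell. Hexokinase-1-like (LOC107999784), the entry step, went from 182, 181 and 188 to 419, 424 and 423 CPM, 2.31-fold higher (log2 fold change 1.21, SE 0.0291, adjusted p = 7.7e-16). Lactate dehydrogenase-like genes LOC107999802 and LOC108001542, which turn pyruvate into lactate, rose by 1.21 and 1.24, pyruvate kinase-like (LOC107996114) by 0.73 and aldolase (LOC107994885) by 0.54. Phosphoenolpyruvate carboxykinase (LOC107997339), which runs towards glucose, rose by 1.09. Oxidative phosphorylation showed 44 rises and 18 falls among 87 genes, with the Rieske subunit of complex III (LOC107993480) at 0.70 and a succinate dehydrogenase flavoprotein copy (LOC108000164) at -1.36. Fatty acid degradation gave 9 rises and 13 falls among 31, but 20 and 3 with library totals alone.

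Transcription factors with a homeobox, many of which fix the identity of body parts, were higher more often than lower. Of 97 genes of this kind 38 were expressed above the filter, of which 21 rose and 5 fell (median 0.40). Distal-less (LOC107996218) rose from 59.6, 66.9 and 62.8 to 122, 125 and 119 CPM (log2 fold change 0.96, SE 0.0478, adjusted p = 1.38e-11) and proboscipedia (LOC108000244) from 48.4, 45.1 and 43.9 to 71.7, 74 and 74.3 CPM (log2 fold change 0.69, SE 0.0502, adjusted p = 2.46e-09). Cut (LOC107999100), which marks bristle organs in Drosophila, rose by 0.98, whereas B-H2-like (LOC107992539) fell from 125, 121 and 123 to 38, 38.1 and 37.7 CPM. The shares of the gland and eye markers given above were lower in the same rapeseed libraries, and the part of tissue make-up in the rises of muscle, sugar-burning and homeobox genes was not tested. Other genes among the 10 of highest FPKM in the rapeseed libraries rose by less than 2-fold: probable H/ACA ribonucleoprotein complex subunit 1 (LOC107999251) at a log2 fold change of 0.72, kielin/chordin-like (LOC108002114) at 0.65, neurofilament heavy polypeptide (LOC107998116) at 0.57 and glycine-rich RNA-binding protein 3 (LOC107994109) at 0.75.

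Among genes of taste and smell the receptors were scarce, and some carrier and receptor genes were uneven in non-pollen replicate 1. The 3 non-pollen libraries had 1652, 11607 and 10967 counts of general odorant-binding protein 69a-like (LOC108002840), a carrier of odours, against 5566, 5636 and 5512 in the rapeseed ones, and 44, 284 and 270 against 126, 160 and 116 counts of the odorant receptor co-receptor (LOC107994963). Of 12 odorant-binding and chemosensory protein genes 7 were tested, of which 3 fell and 2 rose, and without that library 5 fell and 2 rose, while with library totals alone 1 fell and 2 rose. Pheromone-binding protein-related protein 3-like (LOC108003002) was lower, at 6.71, 5.7 and 5.87 against 17.8, 17.4 and 18.7 CPM, and ejaculatory bulb-specific protein 3-like (LOC107992583), a chemosensory protein, higher, at 760.4, 771 and 753 against 510.0, 588 and 585 CPM. Only 21 of 123 odorant, gustatory and ionotropic receptor genes passed the filter, 7 higher and 6 lower, or 7 and 8 without that library. With library totals alone 9 were higher and 4 lower. The sugar receptor Gr64f-like (LOC107997799) had a log2 fold change of 0.98 at 3.21, 1.89 and 3.33 against 5.11, 5.78 and 5.52 CPM, and the odorant receptor 4-like genes LOC107996764 and LOC107996749 had 1.08 and -3.28. The CD36 family, membrane proteins that bind lipids, moved more clearly: of 8 tested 6 rose and 2 fell. Scavenger receptor class B member 1 (LOC107998401) went from 32.4, 37.1 and 35.6 to 110.3, 112 and 110.4 CPM, a 2nd such gene (LOC107999764) rose by 1.2, and sensory neuron membrane protein 1 (LOC108001223), which helps pheromone detection in Drosophila, by 0.73.

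Genes of transport, hormones and defence against toxins moved one by one. The aquaporins LOC108001077 and LOC108001076, channels for water, rose from 247, 242 and 262 to 569.8, 554 and 577 CPM and by a log2 fold change of 0.77. Of 23 sugar transporters 10 rose and 6 fell, with the trehalose transporters Tret1-2 homolog (LOC107998747) at 1.03 and Tret1-like (LOC107996289), of higher FPKM, at -0.71, and monocarboxylate transporter 10 (LOC108002358) was at -2.82. Of 30 cytochrome P450 genes, oxidases of hormones and plant toxins, 14 rose and 8 fell. The copies 6B1-like (LOC108003970) and 6a14-like (LOC108003969) fell by 4.07 and 3.21 on the log2 scale, and LOC108004000, described as 6a14, went from 1498, 1427 and 1433 to 583, 566 and 579 CPM. P450 9e2-like (LOC108004123) and 6k1-like (LOC108003715) rose, with 758, 929.7 and 973 CPM of the latter in the non-pollen and 1467, 1506 and 1497 CPM in the rapeseed libraries. Among esterases, which split esters, the E4-like genes LOC108003111 and LOC108003932 fell by 1.31 and 1.34 on that scale and venom carboxylesterase-6 (LOC107993965) rose by 1.21.

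Of 26 genes of juvenile hormone and ecdysone 14 rose and 7 fell. Juvenile hormone paces the change from nurse to forager in the western honey bee. Juvenile hormone acid O-methyltransferase (LOC108002008), which makes the hormone, was scarce, at 16, 28 and 35 counts in the non-pollen and 155, 182 and 149 in the rapeseed libraries (log2 fold change 2.29, adjusted p = 1.83e-06), and juvenile hormone epoxide hydrolase 1-like (LOC108003695), which breaks it down, went from 217, 218 and 216 to 348, 349 and 344 CPM. Takeout-like (LOC108004396), of a family linked to feeding in Drosophila, rose 2.01-fold. Farnesol dehydrogenase-like (LOC107993352), also of the list, fell from 167, 271 and 173 counts in the non-pollen to 23, 22 and 43 in the rapeseed libraries (log2 fold change -3.14, adjusted p = 7.2e-08). By at least 2-fold 2 members of the list rose and 2 fell. The insulin-like receptor (LOC108002859) and FOXO (LOC107993192), a factor that insulin signalling holds back, rose by 0.89 and 0.85, within a list of 19 with 8 rises and 4 falls. Few histone genes moved, 6 of 17 down and 1 up (3 and 8 with library totals alone), but histone H2B.3 (LOC108003495) and the H1-type LOC108003496 had log2 fold changes of -1.96 and -1.23.

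Further lists are given as rises and falls after TMM scaling, where 30.0% of all tested genes rose and 29.8% fell. Rises outnumbered falls in each of these lists with library totals alone. Lysosome genes gave 36 rises and 29 falls of 91, with lysosomal alpha-mannosidase (LOC107996126) at 1.43, and peroxisome genes 22 and 30 of 74. Lipases and lipid storage gave 13 and 20 of 46 and nuclear transport 33 and 40 of 145. Spliceosome genes gave 37 and 18 of 124, or 29.8% and 14.5%, so their rises were at the share over all genes. Antioxidant and iron genes gave 13 and 12 of 35, and cilium genes 9 and 12 of 43. Components of Hedgehog, Wnt, Notch and TGF-beta signalling gave 11 and 1 of 22, more rises than falls, none of 2-fold.

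Most differences from the non-pollen libraries did not pass the test between the pollen carriers. In the test of rapeseed against pear 1200 genes (13.2%) were called, 734 higher and 466 lower in rapeseed, and 58 of them by at least 2-fold. Of the 648 genes called with a fold of at least 2 between rapeseed and non-pollen libraries 188 were also called between rapeseed and pear. Long-wavelength rhodopsin (LOC108000411) did not pass the test between the pollen groups (log2 fold change of rapeseed minus pear -0.14, SE 0.117, adjusted p = 0.507), nor did Sec61 alpha (LOC107996464; -0.09, SE 0.0359, adjusted p = 0.134). Royal jelly genes were divided between the pollen groups, 4 of the 9 higher and 4 lower with rapeseed. Major royal jelly protein 5-like (LOC107997172) had 2026, 2804 and 3306 CPM in the pear libraries, above every rapeseed library (log2 fold change -1.40, SE 0.104, adjusted p = 1.5e-09), whereas alpha-glucosidase (LOC107993622) was higher with rapeseed than with pear pollen (log2 fold change 0.56, SE 0.0483, adjusted p = 1.79e-08).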

How the data were processed

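RNA of the proboscis was sequenced in 9 libraries, 3 per group. The authors deposited 1 table with raw counts and FPKM (fragments scaled by gene length and library total) per gene and library, with a description, GO and KEGG terms. Tools listed in the submitters' processing notes are HISAT2 2.2.1 and cutadapt 1.9, beside StringTie 2.1.6, edgeR and DESeq2. The sources used here give no genome build, strand setting or treatment of multiply matching reads.

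Groups came from the sample labels. Deposited counts of the 6 libraries were tested with edgeR 4.0.16 (R 4.3.3; quasi-likelihood F-test, TMM scaling, Benjamini-Hochberg adjustment over 9067 genes, threshold 0.05), and rapeseed against pear in a fit of all 9 libraries on the same genes. Standard errors are the log2 fold change divided by the root of F. CPM values use TMM factors of the 9 libraries, so that pear is on 1 scale, and levels are compared between genes only by the authors' FPKM, which carries no TMM scaling. Total counts of 43034759 or more per library limit precision mainly for genes of few counts. The scripts were tested on simulated counts with known changes. Those counts held no shift in composition like that of the gland transcripts, so the scaling was not tested there.

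Named genes were taken from the 15 largest changes per direction (described, mean FPKM of at least 5 in a group, no overlap between groups), the 10 of highest FPKM per group, and from each list up to 4 largest changes per direction and 4 of highest FPKM. Marker genes of cell types are also named. Lists were built from descriptions and KEGG terms; members and lists were chosen with earlier results of these data known, and list patterns were trimmed on the descriptions after the table was opened. Alternatives covered scaling, tool, filter, pseudocount, replicate block, a fold threshold and each library left out (limma 3.58.1, DESeq2 1.42.0). No sequence or genome was used here.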

Additional observations from a re-analysis of the deposited data

Results flagged for a closer look

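For 35 of the genes named above the 2 pollen groups themselves differed, in a test of rapeseed against pear (edgeR, against a fold of 1.5), which 62 of all tested genes passed. Values are log2 fold changes of rapeseed minus pear.

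Of these 35 genes, 4 antimicrobial peptide genes and 4 royal jelly genes were lower with rapeseed than with pear pollen. The hymenoptaecins LOC107993492 and LOC108001747 were at -2.74 and -2.81, apidaecins type 22 (LOC108000468) at -2.13 and abaecin-like (LOC108002218) at -1.47. The royal jelly genes LOC107997173, LOC107997171, LOC107997172 and LOC107994025 were at -1.90, -1.55, -1.40 and -1.2, and their pear libraries were themselves far below the non-pollen ones, at 338, 494 and 589 CPM against 43204, 40677 and 41240 CPM for LOC107994025. Eisosome SEG2-like (LOC108000123), synaptic vesicle glycoprotein 2A (LOC108002484), aminopeptidase N (LOC107993198) and the E4-like esterases LOC108003111 and LOC108003932 were at -1.59, -1.0, -0.93, -0.94 and -0.87. PI-PLC X domain-containing protein 1-like (LOC108002169) had 12, 31 and 17 counts in the pear libraries and 0 in the rapeseed ones, so that its fitted value of -7.30 depends on the prior count.

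Other genes were higher with rapeseed than with pear pollen. Laccase-5-like (LOC108001912), venom serine protease 34-like (LOC107993933), triacylglycerol lipase-like (LOC108002367) and the lipase H-A-like LOC108002366 were at 5.29, 4.89, 3.76 and 3.44. The elongases LOC107995792 and LOC108001947 were at 3.57 and 3.36, phospholipase B1 (LOC107999468) at 3.13 and the glucosylceramidase LOC108003239 at 1.36, all 4 of which were lower in rapeseed than in non-pollen libraries. Among the remaining lipid genes, the reductases LOC108003267 and LOC107998959 were at 0.97 and 0.88, the elongase LOC108000343 at 0.76 and the desaturase LOC108000092 at 0.93. Of the chaperones, LOC107996022, LOC107996023, LOC107996026, LOC107996027 and LOC107996025 were at 1.30, 1.15, 1.08, 0.97 and 0.86, and the cognate Hsp70 LOC107996313 at 0.89. Loricrin (LOC108000177), P450 9e2-like (LOC108004123) and adenosine deaminase CECR1-like (LOC107996199) were at 1.15, 0.83 and 0.74.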

How the results depend on the processing

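The split into rises and falls depended on the scaling. With library totals alone 6429 genes were higher, 728 lower and 1302 changed by at least 2-fold, with limma on log2(FPKM + 1) 6539 were higher and 709 lower, and with log2(FPKM + 0.1) 6518 were higher, 706 lower and 1277 at least 2-fold. DESeq2 called 5373 of the 5415 genes in the same direction and library totals alone 3445. Tested against a fold of 1.5, 1012 genes remained between rapeseed and non-pollen libraries, 402 higher and 610 lower, and 62 between rapeseed and pear. Without a filter 1013 genes changed by at least 2-fold, and 345 with an FPKM of at least 5. Leaving out 1 library at a time gave 4866 to 5518 calls (2452 to 2714 higher, 2414 to 2804 lower), 649 to 690 of at least 2-fold, and 833 to 1140 between rapeseed and pear.

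Same-numbered non-pollen and rapeseed libraries did not deviate together (r of 0.068, -0.042 and -0.058), so the numbers were not taken as pairs, and a replicate block gave 5346 calls, 2702 higher and 2644 lower, 661 of at least 2-fold, and 1117 between rapeseed and pear.

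Odorant-binding protein 69a-like (LOC108002840) turned from -0.77 to 0.029 and 0.033 with limma at the larger and smaller pseudocount, was -0.29 with library totals alone and -1.2 without non-pollen replicate 1. The cause was not tested. Lipase H-A-like (LOC108002366) was no longer called against pear by DESeq2 (3.46). These are examples. Over 3286 comparisons of genes named in the Results with an alternative, 3239 kept their call, 40 lost it, 5 gained one and 2 reversed. Depth limits genes of few counts, such as this lipase and the odorant receptors.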

Other observations

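Markers of fat body and blood cells have no section of their own above. Of 4 tested fat body markers 2 rose and 2 fell, and both of the 2 tested blood cell markers fell. The vitellogenin precursor, a yolk protein made in the fat body, and hemocytin, a clotting protein of blood cells, were lower in the rapeseed libraries (log2 fold changes -0.855 and -0.448 in edgeR), as was phenoloxidase 2 (-0.767), which starts the blackening of wounds. The fall of hemocytin is smaller than the median of 0.469 under library totals alone, so its direction rests on the scaling. A vitellogenin-like gene (0.694) and apolipophorins (0.189) were higher, while hexamerin-like (LOC107995056) had the largest fall of these markers (-5.61).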
